A study of Mus musculus with 4 samples.

Results

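The genes described here are 7 transcription factors that set granulocyte or monocyte fate and lie outside the C/EBP family: Spi1, Gfi1, Irf8, Klf4, Runx1, Zeb2 and Irf4. They were chosen by name, with earlier results of these data known, and each symbol matched 1 of the 45232 gene identifiers counted. RNA sequencing was done on leukemic granulocyte-macrophage progenitors (L-GMPs), the leukemic counterpart of the progenitor that gives rise to granulocytes and monocytes. The cells came from mice that were secondary recipients of acute myeloid leukemia driven by the fusion oncoprotein MLL-AF9, so both groups carry that fusion. One group of 2 mice is labelled Scr, and a second group of 2 mice is labelled miR-99 KD; each mouse gave 1 library. All cells were taken when the mice died, by a flow sort for GFP and tdTom, c-Kit, Sca-1, CD16/32 and CD34. Neither Scr nor KD is spelled out in the labels, and the sources used here do not give strain, age, the vectors used, or whether the recipients shared a primary leukemia. The comparison asks how these factors differ between L-GMPs labelled miR-99 KD, after a microRNA family, and their Scr counterparts.

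Granulocyte-macrophage progenitors choose between neutrophil and monocyte fates through a small network of transcription factors. PU.1, the Ets factor encoded by Spi1, is needed for both fates, and RUNX1 acts upstream of it in blood stem and progenitor cells. IRF8 and its downstream factor KLF4 favour monocytes, and the repressor GFI1 favours granulocytes and opposes PU.1 and the monocyte program. IRF4 is the closest relative of IRF8, and ZEB2 is a zinc finger repressor used in monocyte and dendritic cell development.

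MicroRNAs, such as those of the miR-99 family, are short RNAs that pair with messenger RNAs mainly through their seed, bases 2 to 8. The mature sequences below are from RefSeq (GRCm38.p6), 5′ to 3′, with the seed in capitals, and are shown because a transcript with a full match to the seed would be a candidate for direct pairing.
mmu-miR-99a-5p: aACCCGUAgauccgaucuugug
mmu-miR-99b-5p: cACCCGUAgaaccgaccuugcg
mmu-miR-100-5p: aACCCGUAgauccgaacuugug
All 3 share 1 seed. None of the 7 factors had a match to it in its longest annotated 3′ UTR, searched as TACGGGT (the full seed match) or ACGGGTA (bases 2 to 7 followed by A) on the transcript strand. Of 21173 genes with an annotated 3′ UTR, 2.08% had such a match. The shorter 6-base match ACGGGT, which both longer forms contain, was found once in Runx1 and once in Irf4, against 6.14% of all genes. That share is not matched for 3′ UTR length. The 3′ UTRs searched had 4189 bases in Runx1, 3309 in Irf4, 4941 in Zeb2 and 362 to 1519 in the remaining factors. These are the 2 matches with their flanks, read from the GENCODE M21 transcripts, with the 6 matching bases in capitals.
Runx1: tctcttgctcACGGGTttttttcccc
Irf4: tgcaagtctcACGGGTgctttctgtt
On GRCm38 the matching bases lie at chr16:92602886-92602891 on the minus strand (Runx1) and chr13:30765858-30765863 on the plus strand (Irf4). A letter match is a description and says nothing of pairing in these cells. The mature microRNAs were not measured in these messenger RNA libraries.

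Gene counts per library ran from 38458519 to 42674407. The library Scr 1 differed most: it had counts in 28573 genes, against 21372 to 24038 in the others. Olfactory receptor genes, normally used in the nose and not in blood, held 51.9 CPM (counts scaled to the library total) in it against 4.78 to 14.95 CPM. miR-99 KD 2 came next in both, with 24038 genes and 14.95 CPM, against 22310 genes and 5.52 CPM in Scr 2. It also had the largest share of entries without a unique alignment, 23.64% against 19.28% to 20.14%. The part of these differences in the results was not tested. Fold changes without Scr 1 are given for each factor, as is the median of each pathway list without it. Those fits leave Scr 2 as the only Scr library, so they hold no spread between Scr mice. Of the sorted surface markers, Kit (232 to 453 CPM), Cd34 (283 to 358 CPM) and Fcgr3 (370.2 to 482 CPM) were well expressed in each library. Ly6a, the gene of Sca-1, had only 4 to 8 counts per library, although the labels list Sca-1 as positive. The 12 neutrophil granule markers summed to 6199 and 4202 CPM for the Scr pair and to 10996 and 24353 CPM for the miR-99 KD pair. The 10 monocyte and macrophage markers summed to 2204 and 2059 CPM for the former and 2461 and 3779 CPM for the latter. Both sums were higher in each miR-99 KD library than in each Scr library, but the members of the second list were mixed. Ly6c2 (1356 to 2711 CPM) and F13a1 (301 to 623 CPM) made up most of it, and its 9 tested genes split into 5 with positive and 4 with negative fold changes. Both miR-99 KD libraries lay above both Scr libraries in 4 of these 9 genes and below in 3 (Ccr2, Cd14 and Mrc1). Over all tested genes, 12.7% lay above and 28.3% below in this way. The 9 dendritic cell markers summed to 283 and 396 CPM for the Scr pair and to 184 and 272 CPM for the miR-99 KD pair, nearly all of it from Flt3 (161 to 359 CPM), whose groups overlapped. The 7 tested dendritic cell markers split into 2 with positive and 5 with negative fold changes. Cd209a had a log2 fold change of 2.41 and Itgax one of −2.42. Summed markers of B and plasma cells (62.6 to 102 CPM), T and NK cells (114 to 167 CPM) and erythroid cells (41.1 to 102 CPM) overlapped between the groups. Most of each sum came from Cd79b, from Nkg7, and from Hba-a1 with Hbb-bs. Cd3e, Cd3d, Cd3g and Cd8a had 0 to 9 counts per library. Both miR-99 KD libraries lay above both Scr libraries in 1 of 6 tested B and plasma cell genes and below in 2. For T and NK cells these numbers were 0 and 1 of 3, and for erythroid cells 0 and 3 of 7. With so few genes tested, none of these counts is set apart from the 12.7% above and 28.3% below over all tested genes. None of the markers in these lists was at 0 in every library. In bulk samples, fewer cells of a type and less RNA per cell cannot be told apart.

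By TPM, which divide counts by exon length before scaling, Spi1 was by far the most abundant of the 7 factors. The length used joins all annotated exons: 2695 bases for Spi1, 7055 for Irf8, 12025 for Runx1 and 19942 for Zeb2. The order of the factors depends on it. In CPM, Zeb2 in the Scr pair (377 and 376) was near Spi1 (363 and 453) and above Irf8 (217 and 154). In miR-99 KD 2 it was below Irf8 (209.9 against 446 CPM). Spi1 averaged 506 ± 61.2 TPM (SD over the 4 libraries), a level above that of 99.1% of detected genes. Irf8 came next at 124 ± 47.4 TPM. In both cases the lowest library lay above the highest library of the next gene. Zeb2 (55.1 ± 16.2 TPM), Gfi1 (38.0 ± 20.3 TPM) and Runx1 (27.8 ± 10.4 TPM) overlapped with each other in range. Klf4 (1.51 ± 0.865 TPM) and Irf4 (0.483 ± 0.109 TPM) were above 58.4% and 49.6% of detected genes, and their ranges did not overlap with each other or with Runx1. The L-GMPs carried high levels of PU.1 and IRF8 transcripts and few transcripts of KLF4 and IRF4 in both groups.

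None of the 7 factors passed an adjusted p of 0.05 between miR-99 KD and Scr. In edgeR's quasi-likelihood test over 15591 genes, 0 genes were called (0% of those tested), and an unadjusted p under 0.05 was reached by 2.66% of them as higher and 5.23% as lower. Among the factors 1, Irf8, was higher at that unadjusted threshold and 0 were lower. DESeq2, which called 1.22% of the genes it tested, and limma-voom, which called 0, also called none of the 7. DESeq2 had 2 factors, and limma-voom 1, at an unadjusted p under 0.05. Over all genes, DESeq2 had 1031 at that threshold, with 16989 genes given an adjusted p, and limma-voom had 1254 of 15591. Without Scr 1, edgeR called 294 genes (1.85% of those tested) and again none of the 7. In CPM, both miR-99 KD libraries lay above both Scr libraries in 2 factors, Irf8 and Klf4, and 12.7% of all tested genes behaved this way. Both lay below in 1 factor, Zeb2, as in 28.3% of tested genes. With TMM factors, edgeR's correction for composition, these shares were 18.9% above and 25.3% below, Irf8 and Klf4 remained above, and 0 factors lay below. The log2 fold change was positive in 6 of 7 factors, against 49% of tested genes, with a median of 0.45 against −0.01 over all tested genes. That median was 0.14 without Scr 1 and 0.93 without Scr 2. The values of each factor in each library are drawn in the plot of levels by library.

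**Figure D1:**
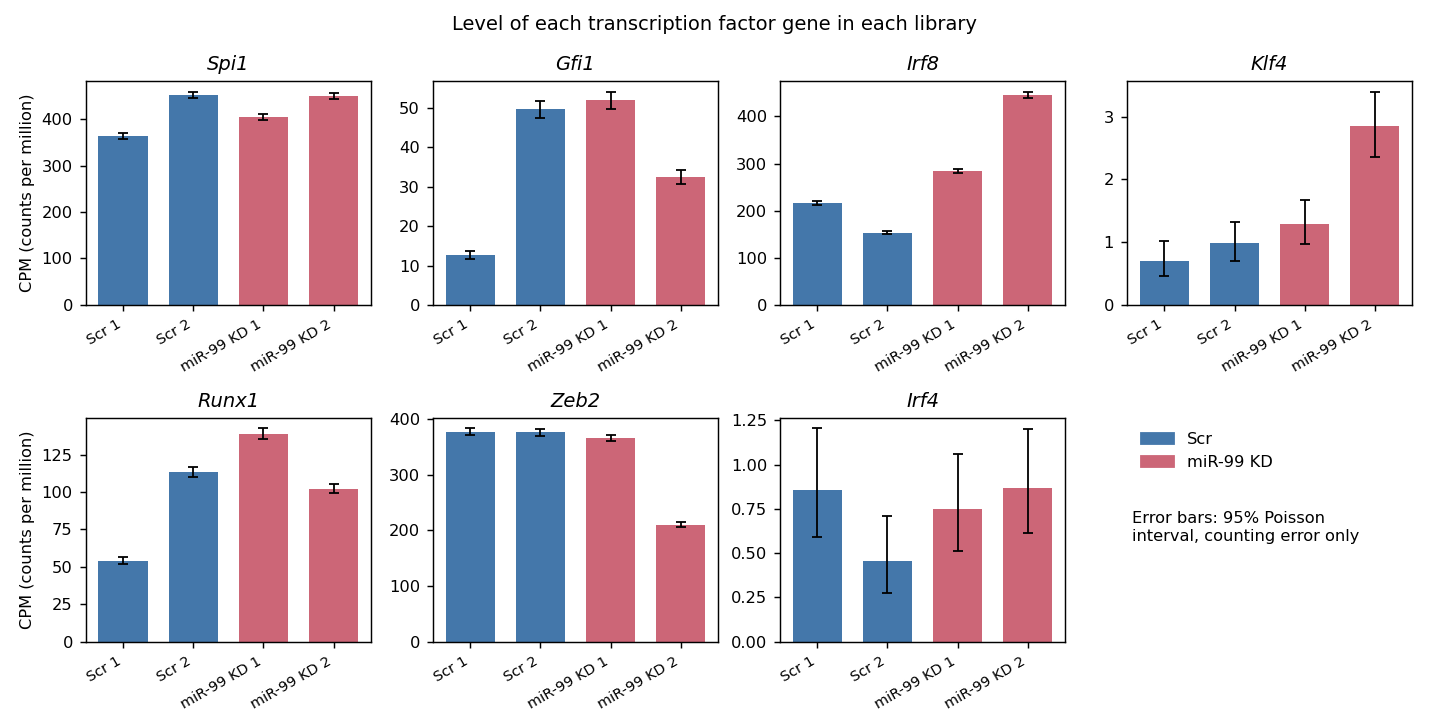
Level of each of the 7 genes in CPM (vertical axes from 0, a scale of its own for each gene) in the 4 libraries, Scr in blue and miR-99 KD in red, with 95% Poisson intervals for counting error only. Irf8 and Klf4 are higher in both miR-99 KD libraries than in both Scr libraries, Gfi1 and Runx1 are lowest in Scr 1, and Zeb2 is lowest in miR-99 KD 2.

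Irf8, the factor that drives the monocyte branch, showed the clearest separation of the groups. It lies at chromosome 8, 120736358 to 120756694 (GRCm38). Scr 1 had 217 CPM and Scr 2 had 154 CPM, while miR-99 KD 1 reached 284 CPM and miR-99 KD 2 reached 446 CPM. Both miR-99 KD libraries were above both Scr libraries, and the 4 between-group pairs of libraries gave ratios from 1.31 to 2.91. Within groups, the higher library exceeded the lower by 1.41 times in Scr and by 1.57 times in miR-99 KD. The spread between mice of each group was thus larger than the smallest between-group ratio, 1.31. The log2 fold change was 1.04 ± 0.28 (SE), with a 95% interval of 0.30 to 1.79, an unadjusted p of 0.0167 and an edgeR adjusted p of 0.580. Without Scr 1 the log2 fold change was 1.31, and without miR-99 KD 2 it was 0.73. In DESeq2 with all 4 libraries the adjusted p was 0.202. The neutrophil and monocyte marker sums also rank miR-99 KD 2 first and miR-99 KD 1 second, as Irf8 does. So does the share of counts from mitochondrial genes, at 0.65% and 0.637% in the Scr pair against 0.853% and 1.16% in the miR-99 KD pair. The part of these values in the result was not tested.

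Klf4, which acts below IRF8 in monocyte differentiation, had the same order of groups at a much lower level. It lies at chromosome 4, 55527143 to 55532466. Scr 1 had 27 counts (0.702 CPM) and Scr 2 had 41 (0.979 CPM), while miR-99 KD 1 had 55 (1.29 CPM) and miR-99 KD 2 had 121 (2.85 CPM). The groups did not overlap, but the intervals for counting error of Scr 2 (0.703 to 1.33 CPM) and miR-99 KD 1 (0.971 to 1.68 CPM) did. The distance between the groups came mainly from miR-99 KD 2, which exceeded miR-99 KD 1 by 2.21 times. Its log2 fold change was 1.33 ± 0.52, with an edgeR adjusted p of 0.639. Without Scr 1 it was 1.14, and without miR-99 KD 2 it was 0.71.

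Zeb2 was almost the same in 3 of the 4 libraries and lower in the remaining one. The gene lies at chromosome 2, 44983632 to 45117395. Scr 1 and Scr 2 had 377 and 376 CPM, miR-99 KD 1 had 366 CPM, and miR-99 KD 2 had 209.9 CPM. In CPM both miR-99 KD libraries were thus just below both Scr libraries, but with TMM factors miR-99 KD 1 lay above Scr 1 and the groups overlapped. A log2 fold change of −0.33 ± 0.31 had an edgeR adjusted p of 0.780, and it was 0.062 without miR-99 KD 2, −0.75 without miR-99 KD 1 and −0.34 without Scr 1. Exons of Zeb2 overlap those of the antisense gene Zeb2os, and without a stated strand setting their reads cannot be told apart where they overlap. Zeb2os did not share the low value of Zeb2 in miR-99 KD 2, with 3.30 and 2.03 CPM in the Scr pair against 3.87 and 5.38 CPM in the miR-99 KD pair.

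Irf4, the relative of IRF8 used in dendritic cells, B cells and plasma cells, had the lowest mean TPM of the 7 factors, with 19 to 37 counts per library. The gene lies at chromosome 13, 30749226 to 30766976. Scr 1 had 33 counts (0.858 CPM) and Scr 2 had 19 (0.454 CPM), while miR-99 KD 1 had 32 (0.750 CPM) and miR-99 KD 2 had 37 (0.870 CPM). Scr 1 lay within the range of miR-99 KD, so the groups overlapped. Its log2 fold change of 0.38 ± 0.44 had an edgeR adjusted p of 0.816. The 95% interval ran from −0.79 to 1.55 and includes 0. The value was 0.89 without Scr 1 and 0.092 without Scr 2.

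Gfi1, the granulocyte-promoting repressor, varied more between the Scr mice than between the groups. It lies at chromosome 5, 107716657 to 107726036. Scr 1 had 12.6 CPM and Scr 2 had 49.7 CPM, while miR-99 KD 1 had 52.0 CPM and miR-99 KD 2 had 32.5 CPM. Scr 2 exceeded Scr 1 by 3.93 times, and both miR-99 KD libraries lay close to or between the Scr values. Its log2 fold change was 0.45 ± 0.75, with an edgeR adjusted p of 0.869 and a 95% interval of −1.54 to 2.45. The direction rested on Scr 1: without it the log2 fold change was −0.19, and without Scr 2, which leaves Scr 1 as the only Scr library, it was 1.92. Exons of Gfi1 overlap those of A430072P03Rik on the opposite strand, which had 4.99, 12.7, 11.3 and 7.90 CPM in the same order of libraries and was likewise lowest in Scr 1.

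Spi1, the gene of PU.1, varied least of the 7 factors, with between-group ratios of 0.893 to 1.24. It lies at chromosome 2, 91082390 to 91115756. Its level was 363 and 453 CPM in the Scr pair against 404 and 450.5 CPM in the miR-99 KD pair, so both miR-99 KD libraries lay between the Scr libraries. The log2 fold change was 0.11 ± 0.21 (edgeR adjusted p 0.884), with a 95% interval of −0.45 to 0.67. It was −0.026 without Scr 1 and 0.41 without Scr 2. The interval leaves room for moderate differences in either direction, so equal levels were not shown.

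Runx1, which encodes the DNA-binding subunit of core binding factor, followed the library Scr 1 more than the groups. It lies at chromosome 16, 92601466 to 92826149. It had 53.9 and 113 CPM in the Scr pair against 139 and 102 CPM in the miR-99 KD pair, with Scr 1 lowest and Scr 2 inside the range of miR-99 KD. The log2 fold change of 0.56 ± 0.46 had an edgeR adjusted p of 0.755 and was 0.14 without Scr 1 and 1.34 without Scr 2. Its 6-base match to the miR-99 seed, printed earlier, stands beside a level that overlapped between groups, as did that of Irf4. Exons of Runx1 overlap the antisense gene Gm26626, which had at most 2 counts in any library.

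Scr 1 was the lowest library in 4 of the 7 factors (Spi1, Gfi1, Klf4 and Runx1), against 18.1% of all tested genes. Among 22 tested relatives and cofactors of the factors, Scr 1 was the lowest library in 7 and the highest in 7, against 39.6% of all tested genes in which it was the highest. Cbfb and Kdm1a, chosen after their values were seen, are among the 7 lowest in Scr 1. Cbfb, the partner subunit that stabilizes RUNX proteins on DNA, had 63.2 and 205 CPM in the Scr pair against 209 and 160 CPM in the miR-99 KD pair. Kdm1a, the histone demethylase LSD1 that GFI1 recruits, had 6.55 and 21.4 CPM in the Scr pair against 18.9 and 13.1 CPM in the miR-99 KD pair. Both Cbfb and Kdm1a overlapped between the groups (edgeR log2 fold changes 0.48 ± 0.63 and 0.21 ± 0.66, and −0.10 and −0.37 without Scr 1). Runx1t1, a corepressor gene of the same list, was instead highest in Scr 1, at 0.858 CPM against at most 0.306 CPM in the others. The high olfactory receptor counts of Scr 1 are seen in the same library as these low values, and their part in them was not tested.

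**Figure D2:**
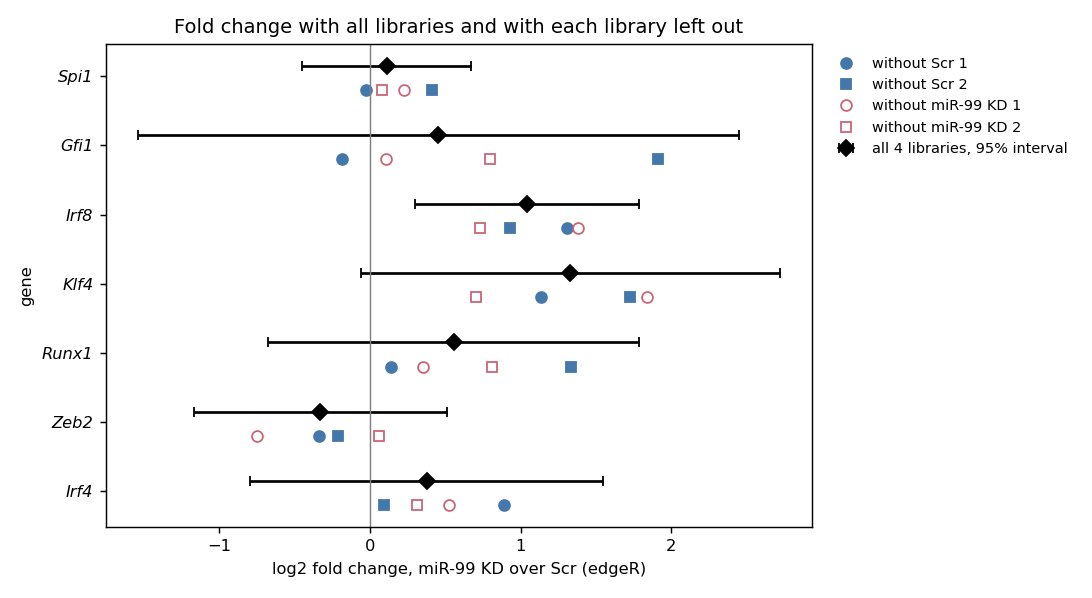
Log2 fold change of miR-99 KD over Scr for the 7 genes (horizontal axis), from edgeR with all 4 libraries (black diamonds with 95% intervals) and with each library left out in turn (blue, a Scr library left out; red outlines, a miR-99 KD library left out; circles, library 1; squares, library 2). Irf8, Klf4, Runx1 and Irf4 keep a positive value throughout, and Spi1, Gfi1 and Zeb2 change sign with 1 library.

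Ratios between 2 factors within a library do not depend on the scaling between libraries. Irf8 over Gfi1 sets a monocyte factor against a granulocyte factor. Spi1 and Gfi1 were paired as described antagonists, and Irf4 and Irf8 as close relatives. The counts of Irf8 per count of Gfi1 were 17.1 (Scr 1) and 3.09 (Scr 2) against 5.47 (miR-99 KD 1) and 13.7 (miR-99 KD 2). Both miR-99 KD ratios lay between the Scr ratios. On the log2 scale the ratio was 2.86 ± 1.75 (SD, n = 2) in Scr and 3.12 ± 0.94 in miR-99 KD, with an exact two-sided permutation p of 1. The smallest p that 2 against 2 libraries can give is 0.333. Spi1 over Gfi1 was 4.02 ± 1.17 and 3.38 ± 0.59 (exact permutation p 0.667), again overlapping. Irf4 over Irf8 did separate the groups, at −7.96 and −8.37 for the Scr pair against −8.54 and −8.98 for the miR-99 KD pair (exact permutation p 0.333, the smallest possible), and it rests on 19 to 37 Irf4 counts per library. Over these 3 ratios the Benjamini-Hochberg adjusted p was 1 for each.

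**Figure D3:**
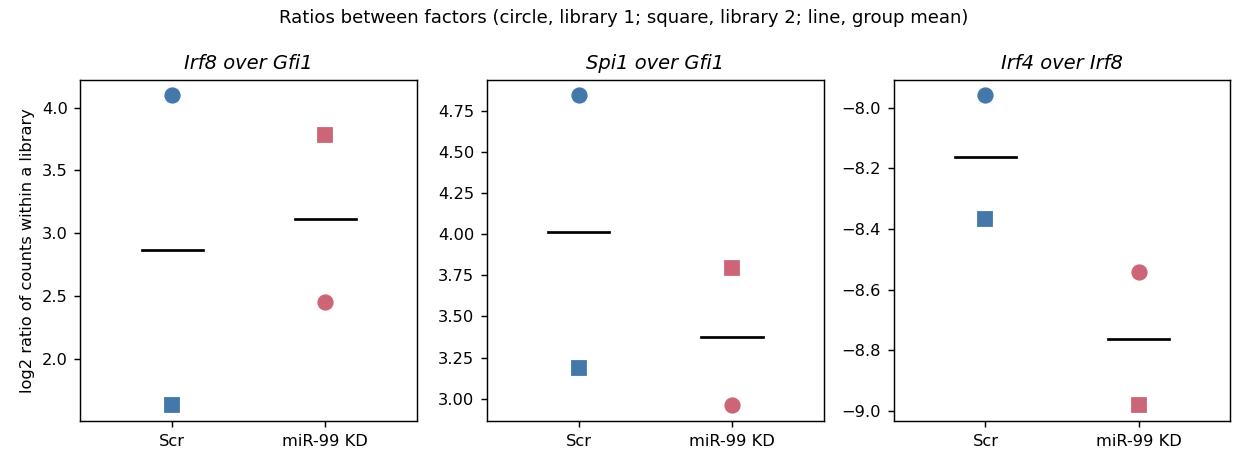
Log2 ratio of the counts of 2 factors within each library (vertical axes, which do not start at 0), for Scr (blue) and miR-99 KD (red), with circles for library 1, squares for library 2 and lines for group means. Both miR-99 KD points lie between the Scr points for Irf8 over Gfi1 and below them for Irf4 over Irf8. For Spi1 over Gfi1, miR-99 KD 2 lies between the Scr points and miR-99 KD 1 below them.

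Relatives and cofactors of the 7 factors went both ways. Of 24 listed genes 22 were tested, 11 with a positive and 11 with a negative log2 fold change, a median of 0.02, and 0 called by edgeR. At an unadjusted edgeR p under 0.05, where 2.66% of all tested genes were higher and 5.23% lower, 0 were higher and 1 was lower. That gene was Jun, a bZIP partner of PU.1 at monocyte genes, with 12.8 and 6.54 CPM in the Scr pair against 3.33 and 4.66 CPM in the miR-99 KD pair (log2 fold change −1.20 ± 0.39, edgeR adjusted p 0.606). The interferon factor Irf7 had 6.92 and 6.76 CPM in the Scr pair against 4.36 and 4.44 CPM in the miR-99 KD pair, and Spic, a PU.1 relative of red pulp macrophages, had 0.962, 0.502, 0.281 and 0.376 CPM. All 3 were below both Scr libraries in both miR-99 KD libraries, and so were 6 of the 22 tested genes in all, a share near the 28.3% of all tested genes. Without Scr 1 the list had a median of −0.16, and the log2 fold change of Jun was −0.65.

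Other transcription factors of monocytes and dendritic cells differed more widely, again in both directions. Of 16 listed genes 15 were tested, with 7 positive, 8 negative, a median of −0.33 and 0 called by edgeR. Unadjusted edgeR p-values under 0.05 were found for 1 higher and 4 lower genes, against 2.66% and 5.23% of all tested genes. Tcf4, the E protein that specifies plasmacytoid dendritic cells, had 3.82 and 2.22 CPM in the Scr pair against 20.0 and 38.6 CPM in the miR-99 KD pair (log2 fold change 3.34 ± 0.46, edgeR adjusted p 0.356). Egr2 and its corepressor Nab2, which act with PU.1 on the macrophage side and oppose GFI1, were lower in miR-99 KD. Egr2 had 1.48 and 1.46 CPM in the Scr pair against 0.586 and 0.353 CPM in the miR-99 KD pair, and Nab2 had 7.77, 12.5, 3.35 and 2.37 CPM (edgeR adjusted p 0.578 and 0.506). Of the 15 tested genes, both miR-99 KD libraries lay below both Scr libraries in 6 and above in 1, against 28.3% and 12.7% of all tested genes. Without Scr 1, which leaves Scr 2 as the only Scr library, the median was −0.24. The log2 fold changes of Tcf4, Nab2 and Egr2 were then 3.8, −2.08 and −1.58. Egr1, an immediate early gene and relative of Egr2, named after its values were seen, had 14.5 and 49.7 CPM in the Scr pair against 3.66 and 0.823 CPM in the miR-99 KD pair (log2 fold change −3.82 ± 1.05, edgeR adjusted p 0.580; −4.43 without Scr 1).

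Described targets of PU.1 had a median log2 fold change near that of all genes. Of 18 listed genes 17 were tested, with 9 positive, 8 negative, a median of 0.05 and 0 called by edgeR. With an unadjusted edgeR p below 0.05, 2 were higher and 1 lower, against 2.66% and 5.23% of all tested genes. The genes with the smallest p were Mpo, myeloperoxidase (713, 503, 2313 and 4714 CPM in Scr 1, Scr 2, miR-99 KD 1 and miR-99 KD 2), the scavenger receptor gene Msr1 (10.8, 7.48, 3.84 and 4.59 CPM) and Lyz2, lysozyme (540.2, 390.2, 659 and 1250.2 CPM). Mpo and Lyz2 were higher in both miR-99 KD libraries and Msr1 lower. Without Scr 1, which leaves Scr 2 as the only Scr library, the median was 0.14. The log2 fold changes of Mpo, Msr1 and Lyz2 were then 2.87, −0.77 and 1.35. Mpo is also 1 of the neutrophil granule markers, while Spi1 itself overlapped between groups.

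Described targets of IRF8 had a median of 0.58, with 9 of 14 listed genes tested, 6 positive and 3 negative. At an unadjusted edgeR p under 0.05, 2 were higher and 0 lower, against 2.66% and 5.23% of all tested genes, and edgeR called 0. Cybb, the catalytic subunit of the phagocyte oxidase, had 419.5 and 216 CPM in the Scr pair against 503 and 1143 CPM in the miR-99 KD pair (log2 fold change 1.44 ± 0.50, edgeR adjusted p 0.621). Ifi30, a lysosomal thiol reductase, had 54.5 and 46.4 CPM in the Scr pair against 63.4 and 108 CPM in the miR-99 KD pair. Both had their highest value in miR-99 KD 2 and the next in miR-99 KD 1, the order Irf8 has. Pml, the nuclear body protein gene, had 132, 118, 94.8 and 59.0 CPM in the same order of libraries, lower in both miR-99 KD libraries. Without Scr 1, which leaves Scr 2 as the only Scr library, the median was 0.84 over 10 tested genes. The log2 fold changes of Cybb, Ifi30 and Pml were then 2.00, 0.95 and −0.57.

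Genes described as repressed by GFI1 were split evenly, with 16 of 17 tested, 8 positive, 8 negative and a median of 0.02. By unadjusted edgeR p, 1 was higher and 4 lower under 0.05, against 2.66% and 5.23% of all tested genes, and edgeR called 0. The 4 lower genes include Egr1 and Egr2, which were also counted among the monocyte and dendritic cell factors. The genes with the smallest p were the homeobox gene Hoxa9, switched on by MLL fusions (301, 351, 169 and 165 CPM in the same order of libraries, edgeR adjusted p 0.466), Egr2 and Irf8. Hoxa9 and Egr2 were lower and Irf8 higher in miR-99 KD, while Gfi1 itself overlapped between groups. Without Scr 1 the median was −0.12, and the log2 fold changes of Hoxa9, Egr2 and Irf8 were −1.02, −1.58 and 1.31.

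**Figure D4:**
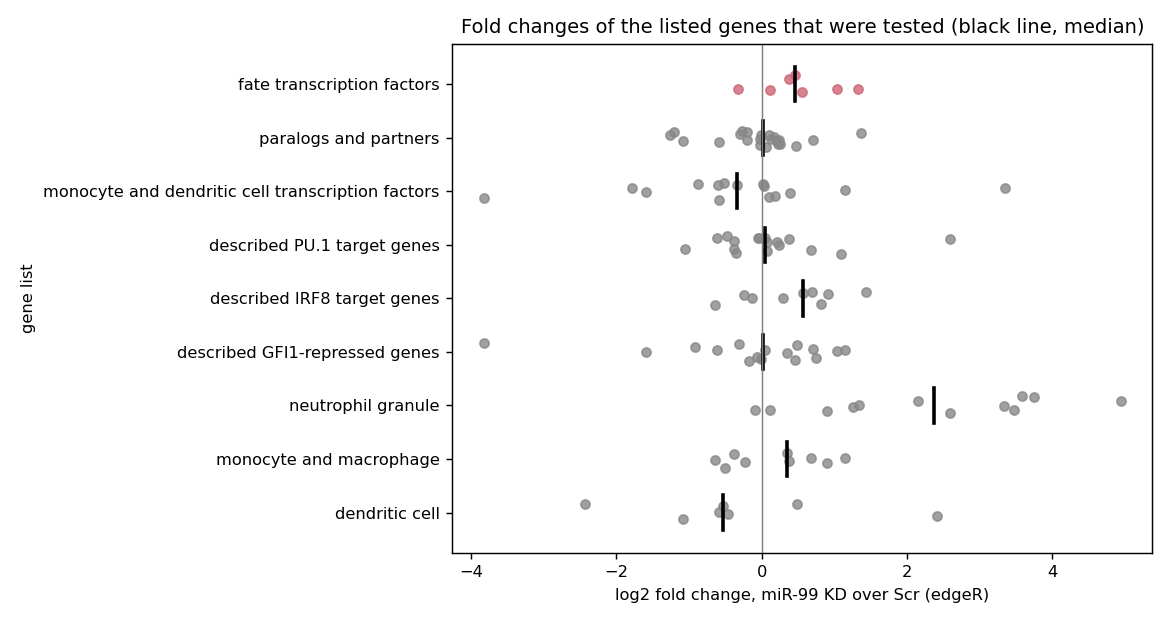
Log2 fold change of miR-99 KD over Scr (horizontal axis, edgeR) of each tested gene in the 7 fate transcription factors (red) and in lists of relatives, other factors, described targets and cell type markers (grey), with the median of each list as a black line. The fate factors lie between −0.33 and 1.33 with a median of 0.45, and the neutrophil granule markers have the highest median, 2.37.

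The genes whose pattern over the 4 libraries was most like that of Irf8 were Ifi203, Gm14648 and Bik. Likeness was the Euclidean distance between log2 CPM profiles centred on their means, over 4 libraries. Ifi203, an interferon-inducible gene of the Ifi200 family, was at a distance of 0.0538, with 3.72 and 2.51 CPM in the Scr pair against 4.90 and 7.59 CPM in the miR-99 KD pair. Ifi203 has close relatives in its family, so its counts are uncertain. Gm14648 (distance 0.0982) had 9 to 28 counts per library, and Bik, a BH3-only death gene (distance 0.115), had 17 to 48 counts. With 4 libraries such matches are a description of shape only. Within the 7 factors, Gfi1 and Runx1 (0.664) were the closest pair, but Runx1 was only the gene of rank 750 in nearness to Gfi1 among those tested. Irf4 (0.745) and Klf4 (0.767) ranked 1261 and 1411 in nearness to Irf8, so none of these pairs stood out from other genes.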

How the data were processed

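Per the labels' protocols, RNA came from Trizol LS lysates and was amplified by SMARTer, a template-switching method for small inputs. The authors deposited raw counts, 1 whole number per Ensembl gene and library. The submitters' processing notes name STAR, Picard, HTSeq and DESeq2 and the build mm9; the sources used here do not give versions, annotation or strand setting. Closing categories that name no gene (5 per file, 43.7% to 49.7% of entries) were left out. Symbols were matched for 44585 of 45232 identifiers (GENCODE M21, GRCm38), which also gave coordinates and exon lengths for TPM; nothing was converted from mm9. CPM are counts scaled to the library's gene total, with no TMM factor.

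Groups were compared with edgeR 4.0.16 (R 4.3.3, quasi-likelihood, TMM, minimum count 10, Benjamini-Hochberg over 15591 genes, adjusted p of 0.05). Simulated data, with 1 common dispersion taken from that fit, served only as a check of the code. Alternatives used DESeq2 1.42.0, limma 3.58.1 (voom), other scalings and filters, a replicate block, and each library left out. P-values measure the spread between 2 mice a group. Amplified reads carry no molecular identifiers, so intervals of single libraries cover counting error only. The members, gene lists and tests were chosen with earlier results of these data known; the lists come from general knowledge, and their entries are not equally well supported. Genes named from each list are the 3 with the smallest edgeR p, and genes most like Irf8, the factor with the smallest p, are the 3 nearest by profile. Further marker lists covered megakaryocytes and platelets (7.48 to 16.0 summed CPM) and mast cells, basophils and eosinophils (96.5 and 88.9 summed CPM in the Scr libraries, 204 and 114 in the miR-99 KD libraries, with Cma1 at 0 in each library).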

Additional observations from a re-analysis of the deposited data

How the results depend on the processing

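No alternative called any of the 7 factors at an adjusted p of 0.05. Of 90 recomputed log2 fold changes 87 kept their direction, but most of the 90 are refits of the same 4 libraries, where direction can hardly change. Every change of direction came with a library left out. The share of all genes that kept their direction was not computed. Over all genes edgeR called 0, against 23 with upper-quartile factors, 9 with library totals alone, 9 with no filter on low counts and 208 in DESeq2. With each library left out it called 0 to 294 genes, the latter without Scr 1; the remaining lone library of a group is then assumed to vary like the other group. The median of the factors was 0.14 to 0.93 with a library left out (0.14 without Scr 1, 0.93 without Scr 2). The difference in log2 Irf8 over Gfi1 was 0.25 and ran from −0.98 (without Scr 2) to 1.49 (without Scr 1), with −0.41 without miR-99 KD 2. That in Spi1 over Gfi1 was −0.64 and ran from −1.47 to 0.19 (without Scr 1), and that in Irf4 over Irf8 ran from −0.82 to −0.38. Single factors that changed sign were Spi1 (−0.026 to 0.41) and Gfi1 (−0.19 to 1.92), without Scr 1, and Zeb2 (−0.75 to 0.062), without miR-99 KD 2. The cause of these changes was not tested. Irf4 did not pass the stricter filter. With the replicate number as a block edgeR called 0 genes. Same-numbered libraries deviated oppositely (correlation across genes −0.428), and a crossed replicate block, added after seeing the data, called 28 genes and none of the 7. List medians and fold changes of list genes without Scr 1 were added after seeing the data. Klf4 and Irf4 had 19 to 121 counts per library.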
